A study of Mus musculus with 37 samples.

Results

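Hippocampal RNA was compared between mice that lost the histone demethylase Kdm1a in forebrain neurons and their control littermates for the 54 genes of a list of bone morphogenetic protein (BMP) and TGF-beta signaling genes, out of the 48795 genes counted. The list names genes of the family and uses no expression value, but it was drawn up with earlier results of these data known. It holds 16 BMP and growth differentiation factor (GDF) ligands, 9 TGF-beta, activin, inhibin and Nodal family ligands, 10 receptors, 6 extracellular antagonists together with the protease gene Bmp1, 4 latent TGF-beta binding protein (Ltbp) genes and 8 Smads. Kdm1a-ifKOs carried Kdm1a f/f alleles and the Camk2a-creERT2 transgene, and tamoxifen was given at 8 weeks of age. Controls, labeled WT, were littermates without Camk2a-creERT2 that received tamoxifen as well, and whether they carried the floxed alleles is not given in the sources used here. All mice were males on a C57BL/6J background, and their age at dissection is not given either. The Camk2a driver is active in forebrain principal neurons, and the other cells of the hippocampus kept their Kdm1a. There were 3 mice per genotype with 1 library each. In these bulk samples, fewer cells of a type and less RNA per cell cannot be told apart.

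Members of this family are secreted proteins that assemble pairs of type I and type II receptors on the receiving cell, which then phosphorylate Smads. BMPs and some GDFs act mainly through Smad1, Smad5 and Smad9, and TGF-betas, activins and Nodal mainly through Smad2 and Smad3, both with Smad4 as the common partner, while Smad6 and Smad7 are inhibitory. Outside the cell, chordin, noggin, Gremlin and follistatin trap ligands, and latent TGF-beta binding proteins tether TGF-beta to the matrix until it is released. In the adult hippocampus the pathway is best known for keeping neural stem cells of the dentate gyrus quiescent and for shaping synapses.

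The libraries held between 18985542 and 19469947 counts. Kdm1a itself lay between 79.5 and 81.1 CPM (counts scaled to the library size) in controls and between 36.9 and 39.3 CPM in Kdm1a-ifKOs (log2FC -1.07 ± 0.06 SE, edgeR adjusted p = 6.24e-08). Control replicate 3 and Kdm1a-ifKO replicate 2 stood apart from the other libraries on the second principal component, which held 16.9% of the variance, so the counts below were also made without them.

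The data showed more members higher than lower in Kdm1a-ifKOs, and the higher ones were secreted proteins. Of the 54 members, 48 had enough counts to be tested. At an adjusted p under 0.05 (edgeR quasi-likelihood test, Benjamini-Hochberg adjustment over the 16799 genes tested), 12 members were higher, which is 25.0% of those tested against 6.04% of all tested genes, for a list that was not chosen independently of these data. A single member, the receptor gene Acvr2a, was lower, which is 2.08% against 2.82% of all tested genes. The 12 were the ligand genes Bmp8a, Bmp8b, Gdf10, Gdf11, Inhbb, Inha and Lefty2, the antagonist genes Nbl1 and Chrd, the protease gene Bmp1, and Ltbp2 and Ltbp3. Among them, 6 had a log2FC over 1 (Ltbp2, Bmp8a, Bmp8b, Lefty2, Inhbb and Nbl1), against 1.36% of all tested genes. The median log2FC was 0.15 over the 48 members, of which 36 were positive, and -0.0034 over all tested genes, of which 49.1% were positive. In 16 of the 48 tested members every Kdm1a-ifKO library lay above every control library, against 15.7% of all tested genes. In 2 of the 48 every one lay below, against 14.4% of all tested genes. Without the 2 libraries that stood apart, 11 members were higher and 1 was lower.

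**Figure D1:**
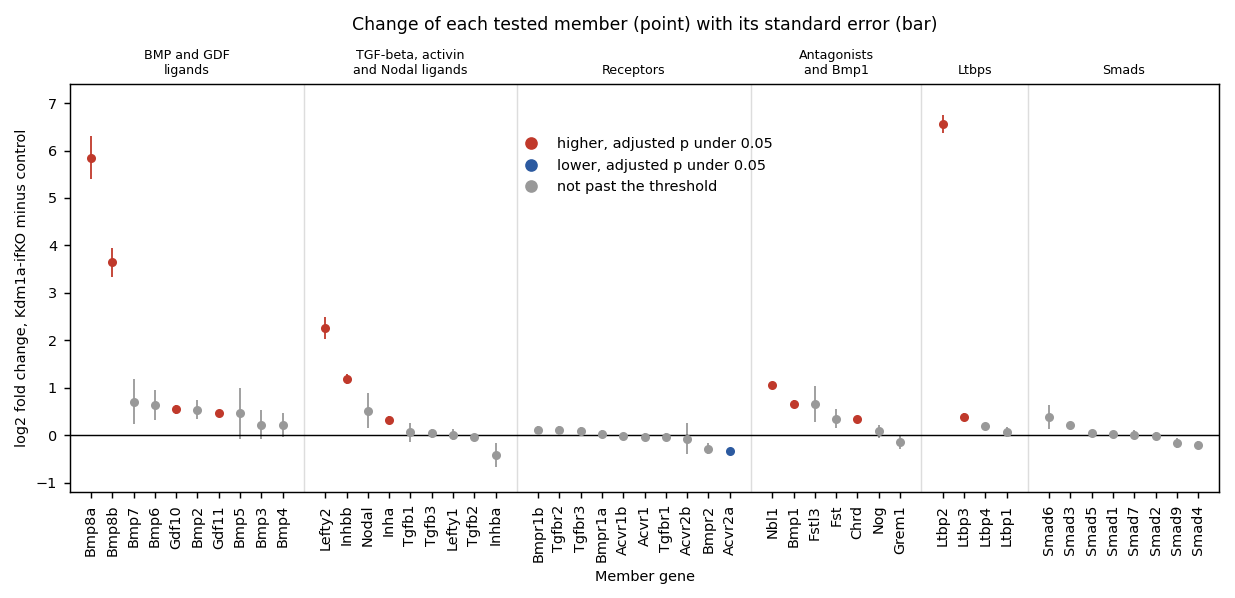
The plot of log2FC by class shows each of the 48 tested members as a point at its log2 fold change (Kdm1a-ifKO minus control) with its standard error as a bar. Members higher in Kdm1a-ifKOs (red) sit among the ligands, antagonists and Ltbps, the 1 lower member (blue) is the receptor gene Acvr2a, and the 8 Smads lie between -0.20 and 0.39 without passing the threshold.

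By class, 4 of the 10 tested BMP and GDF ligands were higher (median log2FC 0.54), as were 3 of 9 TGF-beta, activin and Nodal family ligands (median 0.06), 3 of 7 antagonists with Bmp1 (median 0.35) and 2 of 4 Ltbps (median 0.29). By edgeR, 0 of the 10 receptors were higher and 1 was lower (median -0.03), and 0 of the 8 Smads passed in either direction (median 0.01). At an unadjusted p under 0.05, 0 receptors were higher, and 1 Smad was higher (Smad3) and 1 lower (Smad4), and DESeq2 called 0 receptors higher and 0 Smads. Differences between classes were not tested. Levels that can be compared between genes were taken as TPM, which divides the counts by gene length before scaling to the library. Summed over a class, the TPM of the antagonists with Bmp1 was 298 ± 10.5 in controls and 499 ± 26.6 in Kdm1a-ifKOs (mean ± SD, n = 3). Most of that difference came from Nbl1, at 138 and 285 TPM. The class sum went from 52.0 ± 1.46 to 80.5 ± 8.4 for BMP and GDF ligands, from 145 ± 6.57 to 174 ± 2.37 for the TGF-beta, activin and Nodal family and from 42.3 ± 2.76 to 59.3 ± 2.79 for Ltbps, with no overlap between the groups in any of these 4 sums. Each of these 4 sums includes members past the threshold, so it is no result apart from them and does not describe the other members. Receptors summed to 333 ± 13.5 and 320 ± 4.31 TPM and Smads to 188 ± 4.88 and 196 ± 5.27 TPM, and in both the groups overlapped.

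**Figure D2:**
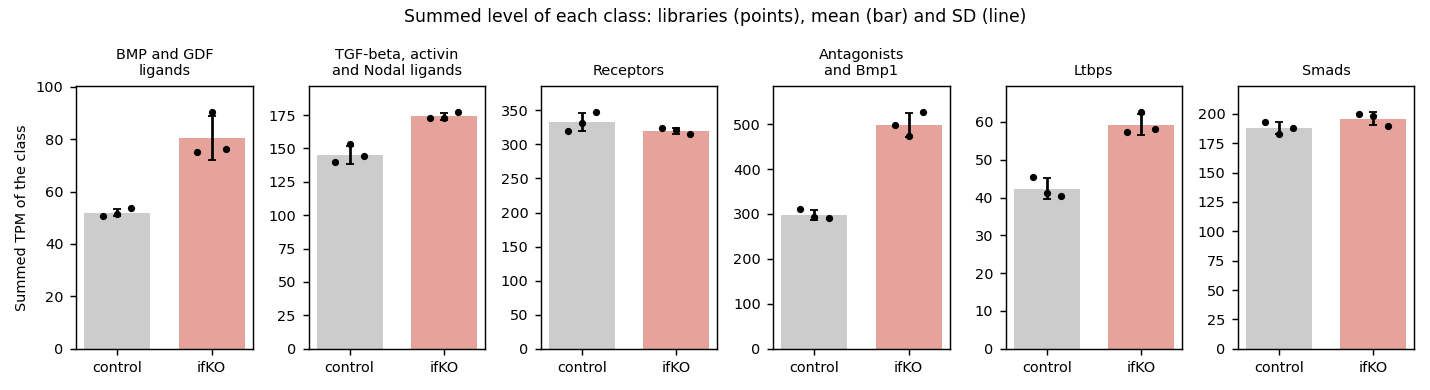
The plot of summed levels shows, for each class, the TPM of all its members added up in each library (points), with the mean (bar) and SD (line) of the 3 mice per group. The 3 Kdm1a-ifKO libraries lie between 473 and 526 TPM for the antagonists with Bmp1, above the control libraries at 290 to 310 TPM, while receptors and Smads overlap between the groups. Of the antagonist sum, Nbl1 alone holds a mean of 138 TPM in controls and 285 TPM in Kdm1a-ifKOs.

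The promoters of the members with a log2FC over 1 are shown because these genes moved the most. The RefSeq promoter table for GRCm38.p6 held 39 of the 54 members (72.2%), which is too few to compare the list as a set, and 5 of the 6 members with a log2FC over 1. Lefty2 has no entry. Each sequence runs 5′ to 3′ from 250 bases before to 50 bases after the start of the gene, and CG dinucleotides, the sites of DNA methylation, are in capitals.
Bmp8a (chr4:123343203-123343502, minus strand): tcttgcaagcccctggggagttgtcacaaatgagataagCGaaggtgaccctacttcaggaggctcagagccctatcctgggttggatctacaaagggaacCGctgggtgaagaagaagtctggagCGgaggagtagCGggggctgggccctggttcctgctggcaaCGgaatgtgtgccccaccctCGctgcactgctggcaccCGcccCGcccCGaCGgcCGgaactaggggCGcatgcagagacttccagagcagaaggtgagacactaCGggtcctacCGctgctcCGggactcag
Bmp8b (chr4:123104911-123105210, plus strand): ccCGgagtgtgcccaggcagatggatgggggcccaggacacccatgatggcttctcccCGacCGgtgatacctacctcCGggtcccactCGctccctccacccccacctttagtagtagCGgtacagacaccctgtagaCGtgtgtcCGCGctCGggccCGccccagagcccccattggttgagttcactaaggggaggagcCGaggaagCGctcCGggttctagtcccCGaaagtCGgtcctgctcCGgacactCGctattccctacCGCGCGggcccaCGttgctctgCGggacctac
Inhbb (chr1:119422199-119422498, minus strand): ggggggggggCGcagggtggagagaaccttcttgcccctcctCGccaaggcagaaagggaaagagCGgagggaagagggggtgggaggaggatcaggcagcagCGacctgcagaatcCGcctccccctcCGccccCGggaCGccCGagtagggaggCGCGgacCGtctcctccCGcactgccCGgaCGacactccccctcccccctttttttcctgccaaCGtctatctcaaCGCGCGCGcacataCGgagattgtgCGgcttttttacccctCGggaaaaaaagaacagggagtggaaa
Nbl1 (chr4:139092921-139093220, minus strand): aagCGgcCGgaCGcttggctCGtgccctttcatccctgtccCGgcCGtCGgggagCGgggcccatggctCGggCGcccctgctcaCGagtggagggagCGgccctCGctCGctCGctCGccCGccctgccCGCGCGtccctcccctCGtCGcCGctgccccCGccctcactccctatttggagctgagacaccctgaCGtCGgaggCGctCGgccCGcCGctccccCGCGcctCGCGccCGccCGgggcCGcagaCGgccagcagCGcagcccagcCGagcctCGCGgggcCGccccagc
Ltbp2 (chr12:84876442-84876741, minus strand): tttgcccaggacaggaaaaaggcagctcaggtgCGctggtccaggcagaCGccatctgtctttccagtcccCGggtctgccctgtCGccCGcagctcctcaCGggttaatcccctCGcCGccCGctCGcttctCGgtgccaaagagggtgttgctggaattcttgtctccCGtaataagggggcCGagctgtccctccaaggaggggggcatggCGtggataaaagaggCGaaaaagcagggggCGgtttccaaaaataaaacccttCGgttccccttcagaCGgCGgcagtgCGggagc
They held 15 (Bmp8a), 23 (Bmp8b), 23 (Inhbb), 43 (Nbl1) and 20 (Ltbp2) CG dinucleotides, beside a median of 20 in the 11986 tested genes with a promoter in the table. The 5 letters CAGAC, the core of the Smad binding element, stand on either strand in the promoters of Bmp8a, Bmp8b, Nbl1 and Ltbp2, and in 48.2% of the promoters of all tested genes. The 6 letters GGCGCC, which Smads also bind, stand in Nbl1 alone of the 5, and in 21.3% of all promoters. These are matches of letters and say nothing of binding.

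Among BMP and GDF ligands, the largest differences were in the neighboring paralogs Bmp8a and Bmp8b, which are best known from germ cells and brown fat. Bmp8a (chr4:123312645-123343252, minus strand) had 0, 1 and 1 counts in control replicates 1 to 3 and 52, 45 and 44 in the Kdm1a-ifKOs. The control libraries were thus at or near 0 and every Kdm1a-ifKO library was far above them, without overlap. The ratio of the summed counts, scaled by library size, was 68.3 with a 95% interval of 18.6 to 569 for counting error, and the edgeR adjusted p was 2.72e-06. Bmp8b (chr4:123105165-123132099, plus strand) had 4, 3 and 8 counts in controls and 67, 73 and 57 in Kdm1a-ifKOs. Again no Kdm1a-ifKO library came near the controls (log2FC 3.64 ± 0.31 SE, edgeR adjusted p = 6.28e-06). The level of Bmp8a went from 0.0584 ± 0.0506 to 4.00 ± 0.373 TPM and that of Bmp8b from 0.272 ± 0.147 to 3.46 ± 0.427 TPM (SD, n = 3). In controls, Bmp2, Bmp4 and Bmp3 stood at 2.70, 3.09 and 2.54 TPM. The genes lie 181 kb apart and share 210 stretches of 50 bases, 8.74% of those in the exons of Bmp8a and 7.3% of those of Bmp8b. Each gene body also contains an Oxct2 gene on the same strand, Oxct2a in Bmp8a and Oxct2b in Bmp8b, which had 4 and 8 counts over the 3 Kdm1a-ifKOs. On the other strand, Bmp8b overlaps Ppie (log2FC 0.29 ± 0.10 SE, edgeR adjusted p = 0.0961). The strand setting of the counting is not given in the sources used here.

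Gdf11 and Gdf10 differed by less but stood higher than the Bmp8 genes in every library. Gdf11, a close relative of myostatin, was the most abundant BMP or GDF ligand gene in controls, at 23.9 ± 0.605 TPM. Its counts were 454, 462 and 468 in controls and 672, 626 and 687 in Kdm1a-ifKOs, with tight groups and no overlap (log2FC 0.47 ± 0.07 SE, edgeR adjusted p = 7.51e-04). Gdf10, also called Bmp3b, had 224, 253 and 224 counts in controls and 377, 316 and 363 in Kdm1a-ifKOs. Kdm1a-ifKO replicate 2 was the lowest of its group and still above every control (log2FC 0.55 ± 0.10 SE, edgeR adjusted p = 0.00340).

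**Figure D3:**
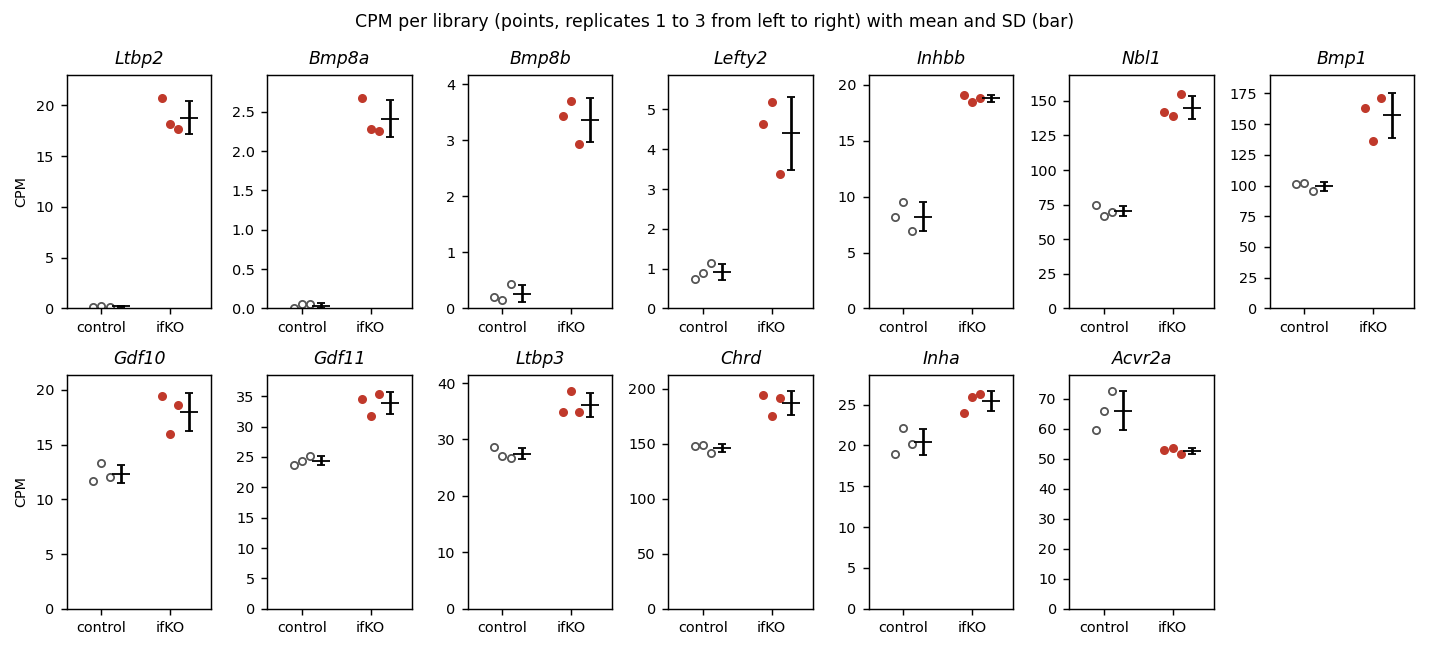
The plot of CPM per library shows the 13 members past the threshold, with control libraries as open circles, Kdm1a-ifKO libraries as filled circles, and the mean with its SD beside each group (n = 3, linear axes from 0). The groups do not overlap in any of the 13 panels, and the control libraries of Ltbp2 lie at 0.157 to 0.263 CPM against 17.7 to 20.7 CPM in Kdm1a-ifKOs.

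The other 6 tested BMP ligands (Bmp2 to Bmp7) did not pass. Their log2FCs lay between 0.22 and 0.71, and in all 6 the highest level was that of Kdm1a-ifKO replicate 2, which stood apart from the other libraries. Without it the log2FC was 0.36 for Bmp2, -0.13 for Bmp3, 0.02 for Bmp4, -0.18 for Bmp5, 0.24 for Bmp6 and 0.05 for Bmp7. Bmp7 had the largest of them (log2FC 0.71 ± 0.48 SE, edgeR adjusted p = 0.432), with 74, 95 and 89 counts in controls and 84, 254 and 100 in Kdm1a-ifKOs. The other Kdm1a-ifKO libraries overlapped with the controls. Bmp6 followed the same order, with 64, 64 and 74 counts in controls and 61, 161 and 103 in Kdm1a-ifKOs (log2FC 0.64 ± 0.32 SE, edgeR adjusted p = 0.262). The groups overlapped, and the value moved with single libraries. It passed without Kdm1a-ifKO replicate 1 (log2FC 0.92, edgeR adjusted p = 0.0239), whereas without replicate 2 the edgeR adjusted p was 0.573, and without both libraries that stood apart the log2FC was 0.33. Bmp5 had 7, 8 and 13 counts against 4, 23 and 13.

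Markers of fibroblasts were high in the same library. Col1a1 had 311 counts and Col1a2 526 in Kdm1a-ifKO replicate 2, against 117 to 135 and 114 to 209 in the other 5 libraries, and the 6 markers of fibroblasts and mural cells summed to 220 to 231 CPM over the controls and to 198 to 279 CPM over the Kdm1a-ifKOs. Dcn did not stand out there, at 1279 counts against 452 to 1195 in the other libraries. Bmp5, Bmp6 and Bmp7 are known from the meninges and choroid plexus. Listed choroid plexus and ependyma markers other than Kl summed to 20.3 to 50.9 CPM across controls. Their sum was 19.3 CPM in Kdm1a-ifKO replicate 2, against 14.4 and 25.9 CPM in replicates 1 and 3. The part of meninges and choroid plexus in the values of these ligands was not tested. Of the higher members, Bmp8b, Lefty2 and Ltbp3 had their highest level in this library, and Gdf10, Gdf11, Inhbb, Nbl1, Bmp1 and Chrd their lowest level among Kdm1a-ifKOs. Without it, 11 of the 12 were still higher, and Inha was not.

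**Figure D4:**
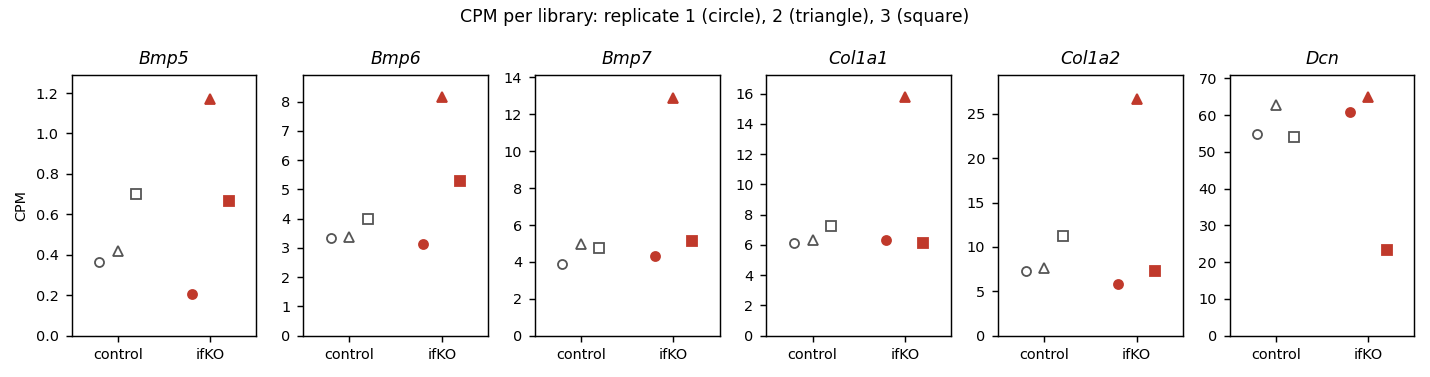
The plot of ligands beside fibroblast markers shows the CPM of Bmp5, Bmp6, Bmp7, Col1a1, Col1a2 and Dcn in each library, with replicate 1 as a circle, 2 as a triangle and 3 as a square. Kdm1a-ifKO replicate 2 is the highest library in all 6 panels, by a wide margin for Bmp7 (12.9 CPM against 3.87 to 5.13 CPM), Col1a1 and Col1a2, and by a narrow one for Dcn.

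Bmp2, a ligand that induces bone and cartilage, had 55, 40 and 42 counts in controls and 61, 85 and 60 in Kdm1a-ifKOs. The groups did not overlap, but the difference did not pass (log2FC 0.54 ± 0.20 SE, edgeR adjusted p = 0.121). Bmp3 (93, 94 and 82 against 109, 156 and 59 counts) and Bmp4 (27, 30 and 42 against 32, 50 and 37 counts) overlapped between the groups, both with a log2FC of 0.22 over all libraries. The 6 members without enough counts for a test were all of this class. Bmp10 and Gdf1 had 0 counts in every library, which for Bmp10 allows up to 0.156 CPM, or 3 counts, per library. Gdf1 overlaps Cers1 on the same strand and Upf1 on the other. How reads in such overlaps were counted is not given in the sources used here, so the 0 of Gdf1 sets no limit on its level. Gdf5 had 12, 2 and 4 counts in controls and 1, 2 and 2 in Kdm1a-ifKOs, and Gdf6 9, 3 and 1 against 7, 6 and 3. Gdf7 had 2, 3 and 3 counts in controls and 4, 10 and 5 in Kdm1a-ifKOs, and Gdf15, a stress-induced hormone, 3, 1 and 2 against 2, 3 and 1.

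In the TGF-beta, activin and Nodal family, the genes past the threshold encode subunits of inhibin and activin and an inhibitor of Nodal, while the 3 TGF-beta genes did not pass. Inhbb encodes the beta B subunit of activin B and inhibin B. Its counts were 157, 181 and 129 in controls and 372, 364 and 366 in Kdm1a-ifKOs. The 3 Kdm1a-ifKOs were nearly alike and all above the controls. Its level rose from 7.68 ± 1.21 to 17.6 ± 0.206 TPM (log2FC 1.19 ± 0.11 SE, edgeR adjusted p = 1.11e-05). Inhba, which encodes the beta A subunit of activin A and is induced by neuronal activity, had the most negative log2FC of all members but overlapped between the groups, with 91, 44 and 76 counts in controls and 61, 46 and 56 in Kdm1a-ifKOs (log2FC -0.42 ± 0.25 SE, edgeR adjusted p = 0.332). No stretch of 50 bases is common to the exons of Inhba and Inhbb.

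Inha encodes the alpha subunit, which pairs with a beta subunit to form inhibins, the antagonists of activins. It was the most abundant gene of the class, at 55.0 ± 4.22 TPM in controls and 68.8 ± 3.49 TPM in Kdm1a-ifKOs. Its counts were 362, 421 and 376 in controls and 467, 510 and 512 in Kdm1a-ifKOs, without overlap (log2FC 0.32 ± 0.08 SE, edgeR adjusted p = 0.0262). This call was the weakest of the 13. It was lost without control replicate 1 (edgeR adjusted p = 0.0805), without Kdm1a-ifKO replicate 2 (0.0638) or 3 (0.0984), without both libraries that stood apart (0.0601) and with DESeq2 (0.0518), with the log2FC between 0.26 and 0.37 when any 1 library was left out.

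The Lefty genes are paralogs 35.9 kb apart that both encode secreted inhibitors of Nodal, and they differed in these data. Lefty2 (chr1:180893108-180899103, plus strand) had 14, 17 and 21 counts in controls and 90, 102 and 66 in Kdm1a-ifKOs. The groups were well apart (log2FC 2.26 ± 0.24 SE, edgeR adjusted p = 4.91e-05). Lefty1 had 178, 180 and 175 counts in controls and 187, 158 and 208 in Kdm1a-ifKOs, and the groups overlapped (log2FC 0.01 ± 0.12 SE, edgeR adjusted p = 0.981). The level of Lefty1 was 21.2 ± 0.122 TPM in controls and that of Lefty2 1.40 ± 0.298 TPM, which became 6.73 ± 1.44 TPM in Kdm1a-ifKOs, still below Lefty1. The exons of the Lefty genes share 281 stretches of 50 bases, 17.9% of those of Lefty1 and 11.6% of those of Lefty2, and how far reads were lost or misassigned between them was not tested. Nodal, the ligand that Lefty proteins inhibit, was low at 12, 11 and 8 counts in controls and 19, 10 and 17 in Kdm1a-ifKOs, with overlap.

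The 3 TGF-beta genes overlapped between the groups. Tgfb2, which neurons and astrocytes express, was the most abundant, with 986, 1119 and 1045 counts in controls and 1130, 980 and 1046 in Kdm1a-ifKOs (log2FC -0.04 ± 0.07 SE). Tgfb3 (log2FC 0.04 ± 0.09 SE) and Tgfb1, which microglia express (log2FC 0.06 ± 0.20 SE), lay as near to 0, with the wider error for the lowest of them, Tgfb1, at 3.40 ± 0.642 TPM in controls.

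**Figure D5:**
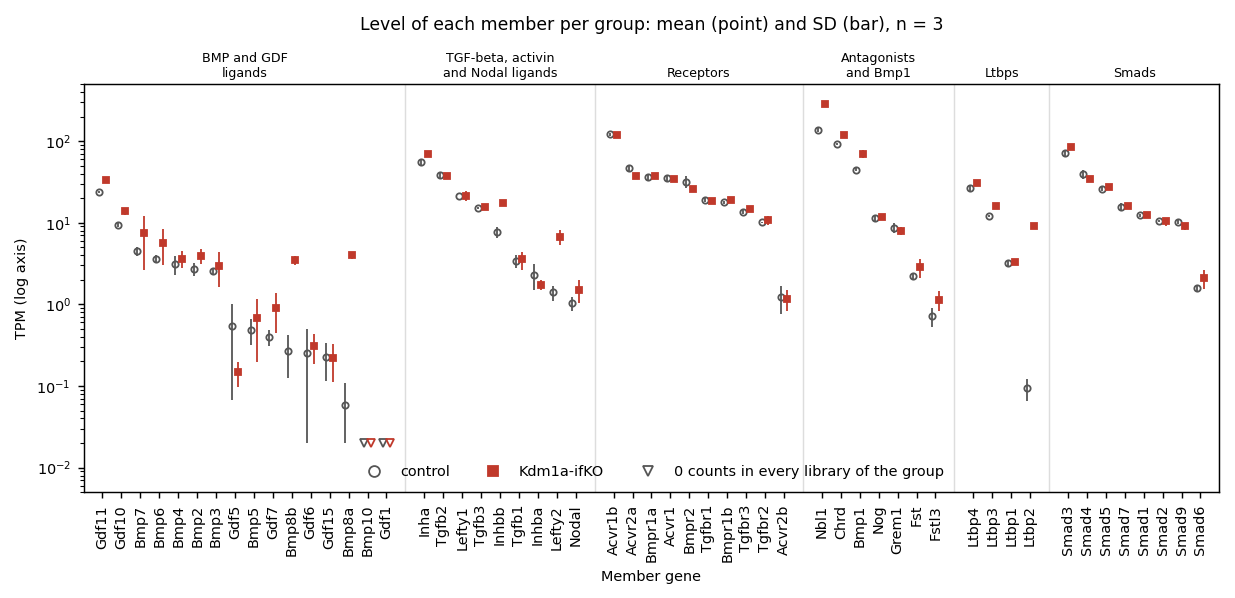
The plot of TPM by class shows the mean level of each of the 54 members in controls (open circles) and Kdm1a-ifKOs (filled squares) with the SD of the 3 mice as bars on a log axis, ordered within each class by the control level, and triangles for the 2 members at 0 counts in every library. Nbl1 stands at 138 TPM in controls and 285 TPM in Kdm1a-ifKOs, above all other members in the latter, and Ltbp2 moves from 0.0940 to 9.19 TPM.

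Among receptors, Acvr2a, a type II receptor for activins, was the one member that was lower in Kdm1a-ifKOs. It had 1139, 1259 and 1350 counts in controls and 1030, 1053 and 1005 in Kdm1a-ifKOs. The Kdm1a-ifKOs were nearly alike and below every control, while the controls spread over a wider range (log2FC -0.33 ± 0.07 SE, edgeR adjusted p = 0.0113). With any 1 library left out, the log2FC lay between -0.40 and -0.25 and the adjusted p at most at 0.0467. The gene overlaps the end of Orc4 on the opposite strand, which had a log2FC of -0.25 ± 0.08 SE (edgeR adjusted p = 0.0859).

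The other 9 receptor genes did not pass, with log2FCs between -0.28 and 0.11. Bmpr2, a type II receptor for BMPs, had 2411, 2516 and 3187 counts in controls and 2330, 2398 and 2160 in Kdm1a-ifKOs, so that the groups were separate, with control replicate 3 far above the others (log2FC -0.28 ± 0.11 SE, edgeR adjusted p = 0.177). DESeq2 called it lower (adjusted p = 0.0348), but without control replicate 3 the log2FC was -0.13 (edgeR adjusted p = 0.167). Acvr1b, a type I receptor for activin and Nodal, was the most abundant receptor at 121 ± 4.29 TPM in controls and 120 ± 4.97 TPM in Kdm1a-ifKOs (log2FC -0.02 ± 0.05 SE). Acvr2b, the other activin type II receptor, was the lowest at 1.22 ± 0.449 TPM and overlapped between the groups (log2FC -0.07 ± 0.32 SE). For Bmpr1a, Bmpr1b, Acvr1, Tgfbr1, Tgfbr2 and the co-receptor Tgfbr3 the log2FC lay between -0.03 and 0.11, with overlap between the groups.

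Of the extracellular antagonists, Nbl1, which encodes the BMP antagonist DAN, had the largest difference and the highest level. Nbl1 (chr4:139082284-139092993, minus strand) had 1424, 1273 and 1298 counts in controls and 2764, 2740 and 3010 in Kdm1a-ifKOs. Each Kdm1a-ifKO library lay far above each control, from 138 ± 7.9 to 285 ± 14.9 TPM as group means (log2FC 1.05 ± 0.06 SE, edgeR adjusted p = 1.39e-07). Chrd encodes chordin, which binds BMPs and blocks their receptors, and had 2834, 2832 and 2651 counts in controls and 3780, 3440 and 3740 in Kdm1a-ifKOs. The groups did not overlap (log2FC 0.35 ± 0.05 SE, edgeR adjusted p = 0.00130). Chrd overlaps the start of Thpo on the opposite strand, which was also higher (log2FC 0.46 ± 0.09 SE, edgeR adjusted p = 0.00514).

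Bmp1 is no BMP ligand but a metalloprotease that cleaves chordin and processes collagens. It had 1926, 1942 and 1771 counts in controls and 3170, 2676 and 3333 in Kdm1a-ifKOs, without overlap and with the lowest of the Kdm1a-ifKOs well above the controls (log2FC 0.66 ± 0.08 SE, edgeR adjusted p = 3.51e-04). The genes of an antagonist and of the protease that cleaves it were thus both higher. Noggin (Nog), with 91, 100 and 82 counts against 97, 104 and 96, and Grem1, with 200, 160 and 157 against 160, 143 and 179, overlapped between the groups. The activin-binding Fst (45, 54 and 46 against 56, 53 and 82) overlapped as well, and Fstl3 did not (6, 9 and 10 against 12, 18 and 11), but at this depth its log2FC of 0.66 had an SE of 0.38 and did not pass (edgeR adjusted p = 0.316).

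Ltbp2 had the largest log2FC of all members. It encodes a matrix protein of elastic fibers that, unlike the other Ltbps, is not known to bind latent TGF-beta. Ltbp2 (chr12:84783212-84876532, minus strand) had 3, 5 and 3 counts in controls and 402, 358 and 344 in Kdm1a-ifKOs. The controls were near the limit of detection and every Kdm1a-ifKO library was far above them, a ratio of 97.2 with a 95% interval of 54.1 to 195 for counting error (log2FC 6.56 ± 0.20 SE, edgeR adjusted p = 1.52e-10). At its start it overlaps D030025P21Rik on the opposite strand, which had 0 counts in each control and 6, 7 and 7 in Kdm1a-ifKOs. At 9.19 ± 0.761 TPM in Kdm1a-ifKOs, Ltbp2 stood above Ltbp1 (3.34 TPM) and below Ltbp3 (15.9 TPM) and Ltbp4 (30.9 TPM), whereas in controls it was the lowest of the 4.

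Ltbp3, which carries latent TGF-beta, was higher by a smaller margin, with 549, 516 and 499 counts in controls and 679, 759 and 679 in Kdm1a-ifKOs, without overlap (log2FC 0.39 ± 0.07 SE, edgeR adjusted p = 0.00309). Ltbp4, the most abundant of the class at 27.0 ± 2.17 TPM in controls, did not pass (log2FC 0.19 ± 0.07 SE, edgeR adjusted p = 0.128), and neither did Ltbp1 (log2FC 0.07 ± 0.11 SE).

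The intracellular Smads did not pass in either direction. Smad3, which acts for TGF-beta and activin, was the most abundant and the nearest to the threshold, with 2074, 1897 and 1724 counts in controls and 2408, 2226 and 2188 in Kdm1a-ifKOs. The groups did not overlap (log2FC 0.22 ± 0.06 SE, edgeR adjusted p = 0.0567), and it passed without control replicate 1 (log2FC 0.28, edgeR adjusted p = 0.0264). Smad6, an inhibitory Smad that BMPs induce, had 25, 26 and 22 counts in controls and 28, 43 and 28 in Kdm1a-ifKOs, also without overlap but with few counts (log2FC 0.39 ± 0.25 SE). For the BMP Smads the log2FC was 0.02 (Smad1), 0.05 (Smad5) and -0.16 (Smad9), and for Smad2, Smad4 and Smad7 it was -0.02, -0.20 and 0.01, with overlap in all of these.

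Beyond the members, 67 other genes of the pathway were listed, of which 59 were tested. Of these, 2 were higher (3.39% against 6.04% of all tested genes) and 0 were lower by edgeR. At an unadjusted p under 0.05, 9 were higher and 4 lower, and DESeq2 called 1 higher (Id3) and 0 lower. Id3, a target gene of BMP Smads that encodes an inhibitor of helix-loop-helix factors, had 532, 431 and 412 counts in controls and 575, 743 and 685 in Kdm1a-ifKOs (log2FC 0.50 ± 0.11 SE, edgeR adjusted p = 0.0197). Twsg1, a BMP-binding partner of chordin, had 638, 710 and 695 counts in controls and 813, 842 and 829 in Kdm1a-ifKOs (log2FC 0.24 ± 0.07 SE, edgeR adjusted p = 0.0397). Neither overlapped between the groups, but both calls depended on single libraries, since without control replicate 2 or Kdm1a-ifKO replicate 3 none of the 59 was higher. The 15 commonly used target genes had a median log2FC of 0.18, with Id3 as the 1 that passed.

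Markers of other cell types give the context of these values. Of 6 microglial markers, 3 were higher (Cx3cr1, Tmem119 and Csf1r), and the 6 summed to 235 to 258 CPM across controls and to 270 to 335 CPM across Kdm1a-ifKOs. Of 6 astrocyte markers, 2 were higher (Slc1a3 and S100b, log2FC 0.22 and 0.26), with sums of 1700 to 1840 and 2000 to 2200 CPM. Pdgfrb of the mural cells (log2FC 0.39) and Kl of the choroid plexus (log2FC 1.28) were higher, Neurod6 of the excitatory neurons (log2FC -0.36) and Vip of the interneurons (log2FC -0.46) were lower, and 0 of 6 oligodendrocyte and 0 of 6 endothelial markers passed by edgeR, at an unadjusted p under 0.05 or by DESeq2. The choroid plexus and ependyma markers summed to 45.7 to 74.7 CPM across controls and to 75.0 to 86.0 CPM across Kdm1a-ifKOs, and Kl alone had means of 24.4 and 59.0 CPM. Without Kl the other markers of that list summed to 20.3 to 50.9 CPM across controls and to 14.4 to 25.9 CPM across Kdm1a-ifKOs, with the choroid plexus gene Ttr at 32.0, 10.7 and 7.04 CPM in controls and 3.29, 6.24 and 8.16 CPM in Kdm1a-ifKOs (log2FC -1.49, edgeR adjusted p = 0.337). No marker of the 48 was at 0 in all libraries. The part of these cells in the values of the members was not tested.

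The genomic surroundings of the 6 members with a log2FC over 1 were set beside CTCF loops measured by ChIA-PET in 1 library without replicates. Its nuclei were sorted from hippocampal excitatory neurons of tamoxifen-treated males labeled WT, which per the study's methods came from a different cross, Camk2a-creERT2 with the CAG-Sun1/sfGFP reporter, at 12 weeks of age. They thus carried the recombinase, unlike the controls of the RNA comparison. CTCF is a DNA-binding protein at the anchors of chromatin loops, and a loop is counted by the paired-end tags (PETs) that join its anchors. At least 1 of the 27786 loops had an anchor within 10 kb of the gene in 37 of the 54 members, in 4 of these 6 members, in 9 of the 12 higher members and in 32 of the 48 tested members (66.7%), against 56.9% of all tested genes on the annotation. Lefty2 had 1 loop of 80 PETs that spanned 70.9 kb. Both anchors of this loop were centered downstream of the end of Lefty2, so the loop did not enclose that gene. Lefty1, which did not pass the threshold, lies between the anchors. Nbl1 had 13 loops, the strongest with 30 PETs over 252 kb. Bmp8a and Ltbp2 had 1 loop each with 3 PETs, the lowest number in the file, and for Bmp8b and Inhbb no loop was listed. The Bmp8a loop spanned 23.9 kb, with anchors centered 37.7 and 61.5 kb downstream of the start of Bmp8a, both past the end of the gene. The first was centered between Bmp8a and Pabpc4 and the second within Pabpc4, which was also higher in Kdm1a-ifKOs. No loop had an anchor within 2 kb of Bmp8a. Of the other loops of these members, only an Nbl1 loop of 5 PETs had a far anchor near a gene past the threshold (Tmco4). Within 200 kb, the tested neighbors past the threshold were 2 of 9 for Bmp8a (Bmp8b and Pabpc4) and 3 of 11 for Bmp8b (Bmp8a, Pabpc4 and Mycl). They were 2 of 7 for Nbl1 (Htr6 and Tmco4), 1 of 12 for Lefty2 (Mixl1), 1 higher and 1 lower of 8 for Ltbp2 (Abcd4 and Arel1) and none of 3 for Inhbb. Of all tested genes, 6.04% were higher and 2.82% lower. Bmp8a and Bmp8b, chosen for their own differences, count each other, and Pabpc4 is counted for both. Whether neighbors differed more often than other genes was not tested.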

How the data were processed

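The authors trimmed single-end poly-A reads with cutadapt 1.18, aligned them to mm10 (GRCm38) with HISAT2 2.1.0, filtered the alignments by mapping quality, removed mitochondrial ones and assigned the rest to Ensembl genes with HTSeq 0.11.1. The deposited values are raw read counts without normalization, checked on the values. The deposited PET counts of the loops came from ChIA-PIPE, which kept loops with a CTCF peak at both anchors. Everything else was computed here. Genes were tested with edgeR 4.0.16 (R 4.3.3; filterByExpr, TMM, quasi-likelihood test with robust dispersions, no covariate beside genotype), a step tested on simulated data. The study's DESeq2 (1.42.0 here) was an alternative. Each edgeR SE was computed as the absolute log2FC divided by the square root of the F statistic of its test. For Bmp8a, with control counts near 0, it was 0.46, against 1.1 with DESeq2. CPM used TMM library sizes, and TPM the summed exon length of GENCODE M21, in which 99.1% of gene identifiers were found. The other alternatives were 2 scalings, 2 filters, a replicate block and each library left out. Leaving out both libraries that stood apart was chosen after seeing the data. For single values, exact permutation tests of 3 against 3 cannot go below p = 0.1. Intervals of ratios are exact binomial and cover counting error only. The members and lists were chosen with earlier results of these data known. Genes named are the members past the threshold, the most abundant member of each class, those at the extremes of log2FC or with an adjusted p between 0.05 and 0.1, genes that overlap them, and pathway and marker genes past the threshold. Not every overlapping gene is reported here. The other members, the loop neighbors and the Lefty, Bmp8 and fibroblast comparisons were described after their values were seen.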

Additional observations from a re-analysis of the deposited data

How the results depend on the processing

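Of the 13 members past the threshold, 12 stayed past it under each of the 13 alternatives, and the exception was Inha. Of 623 recomputed log2FCs of members, 582 kept their direction and side of the threshold, 5 lost the threshold (all Inha), 7 gained it (Bmp6, Bmpr2 and Smad3) and 29 changed sign, in 15 members of which none was past the threshold in any of these cases. With 1 library left out, the log2FC ranged from -0.13 to 0.51 for Bmp3, -0.18 to 0.89 for Bmp5, -0.15 to 0.22 for Tgfb1, -0.10 to 0.01 for Tgfb2, -0.09 to 0.11 for Lefty1, -0.03 to 0.11 for Bmpr1a, -0.07 to 0.03 for Acvr1, -0.06 to 0.01 for Acvr1b, -0.22 to 0.28 for Acvr2b, -0.06 to 0.02 for Tgfbr1, -0.08 to 0.06 for Smad2 and -0.06 to 0.06 for Smad7. Without both libraries that stood apart it was -0.18 for Bmp3, -0.21 for Tgfb1, 0.02 for Tgfb2, 0.01 for Acvr1b, 0.16 for Acvr2b, -0.01 for Tgfbr2, -0.01 for Nog, -0.02 for Smad1 and -0.07 for Smad7, and with upper-quartile normalization it was 0.01 for Smad2. Leaving out 1 library gave 11 to 13 higher members, and the number of lower members stayed at 1. DESeq2 and no filter on low counts each gave 2 lower members, with Bmpr2 added. For Kdm1a the log2FC lay between -1.09 and -1.05 with 1 library left out. Calls among the other pathway genes were not stable. The 2 that were higher became 1 with DESeq2, 7 without a filter and between 0 and 5 with 1 library left out, and the 0 that were lower became 1 without a filter, 2 (Ccn2 and Fn1) without the 2 libraries that stood apart and between 0 and 2 with 1 library left out. The cause was not tested. With the replicate block, 12 members were higher and 1 was lower, but 0 of the other pathway genes were higher. The labels number the replicates alike in both groups without saying what a number shares, and the deviations of same-numbered libraries correlated at -0.03, -0.09 and -0.15, so the numbers were not taken as pairs. Counting only loops of at least 10 PETs left 24 of the 54 members with a loop, in place of 37. The median log2FC of all tested genes was -0.0036 with DESeq2 size factors in edgeR and 0.0224 with upper-quartile normalization. The full DESeq2 fit, over its own set of tested genes, had a median of -0.0179. At this depth, members with few counts, such as Fstl3, Nodal and Acvr2b, had log2FC errors too wide to show differences of the size seen in Chrd or Inha.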
